A study of Homo sapiens with 13 samples.

Results

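Chromatin accessibility at the genes of 10 Krüppel-like factors (KLF2, KLF3, KLF4, KLF5, KLF6, KLF7, KLF10, KLF11, KLF12 and KLF13) was compared between G1- and M-phase in the human glioblastoma cell line T98G, which is long established. Accessibility was measured by ATAC-seq, in which the transposase Tn5 cuts and tags DNA where chromatin is open, so that reads pile up into peaks. The members are all peaks that overlap 1 of these genes or the 25 kb on either side of it, which took 57 of the 129347 peaks of the study. Peaks that overlap an annotated start of the gene itself are called TSS peaks, and each gene had 1, so that there were 10. The other 47 are called flanking peaks, of which 44 overlap no annotated start and 3 overlap a start of another gene, namely KLF7-IT1, CYS1 and ENSG00000259696.

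There were 3 G1 and 3 M-phase libraries. All cells came from cultures grown in DMEM with 10% FCS and glutamine at 2.5 mM by the labels. The G1 cells were starved of serum for 72 h. The M-phase cells were starved for 48 h and released for 36 h with nocodazole, which blocks spindle microtubules. By the paper's methods the release medium held more serum than the growth medium. Mitotic cells were collected by shaking them off the dish. Phase and serum release therefore cannot be told apart, nor can phase and sequencer, since G1 was run on the HiSeq alone while every M-phase replicate also has a NextSeq run. The libraries were populations enriched for a phase, so that more open alleles and a larger share of cells with an open allele cannot be told apart. Nothing in the labels says whether replicates came from separate cultures, and p-values measure the spread between these libraries only.

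The values are read counts per peak that the authors scaled to the smallest library, called scaled reads here. They added up to between 4191845 and 5092426 per G1 library and between 5475345 and 6000423 per M-phase library. The steps between low values give 4333935 to 5365024 reads in peaks behind each G1 library and 12470564 to 14202790 behind each M-phase library, so counting error is larger in G1. Changes are M-phase minus G1 on the log2(scaled reads + 8) scale, which understates the change of weak peaks, and a peak is called higher or lower when the adjusted p of limma, over all 73121 peaks that passed a filter on low values, is under 0.05. Of the 57 members 41 passed that filter, which takes about 10 scaled reads in at least 3 libraries. Among markers, the starts of VIM, CD44, SOX2, SOX9, OLIG2 and EPCAM held peaks, those of NES, GFAP, PTPRC, CD3E, CDH1, CDH5 and ALB held none in the table, and PECAM1 was not found in the annotation under that name. EPCAM marks epithelium and the first 5 neural or mesenchymal cells.

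KLF proteins are transcription factors that bind GC boxes and CACCC boxes through C2H2 zinc fingers at their C-terminal end, a domain they share with the SP factors. The rest of each protein differs and sets the partner. KLF2, KLF4, KLF5, KLF6 and KLF7 mostly activate their targets, KLF3 and KLF12 recruit the corepressor CtBP, and KLF10, KLF11 and KLF13 recruit SIN3A. Several of these genes respond quickly to serum, growth factors or TGF-beta, and members of the family have been studied in quiescence, differentiation and glioma growth.

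The DNA behind the peaks is shown for 8 windows, 3 before a start and 5 at the centres of flanking peaks that changed. Coordinates are hg19, sequences were read from GRCh37, the genome of that build, and capitals mark matches to 1 of 8 consensus motifs searched on both strands. The motifs were the CACCC box (CCACACCC), the GC box (CCCCGCCC), AP-1 (TGANTCA), FOX (TGTTTAC), RUNX (TGTGGTT), TEAD (ACATTCC), the cyclic AMP response element or CRE (TGACGTCA) and the CArG box bound by SRF. No 2 motifs of different kinds overlapped in the windows of the members. The first 3 windows lie just before the annotated start of the gene with the largest rise (KLF6, chr10:3827474-3827651, minus strand), of a gene whose start was called higher and 3 of whose intron peaks were called lower (KLF13, chr15:31618788-31619037, plus strand) and of a gene whose start got no call (KLF12, chr13:74708542-74708791, minus strand). All are written 5′ to 3′ in the direction of the gene.
KLF6 start: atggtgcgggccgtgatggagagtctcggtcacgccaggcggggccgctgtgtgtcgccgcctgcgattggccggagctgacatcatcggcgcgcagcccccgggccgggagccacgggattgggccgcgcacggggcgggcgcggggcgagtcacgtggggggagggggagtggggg
KLF13 start: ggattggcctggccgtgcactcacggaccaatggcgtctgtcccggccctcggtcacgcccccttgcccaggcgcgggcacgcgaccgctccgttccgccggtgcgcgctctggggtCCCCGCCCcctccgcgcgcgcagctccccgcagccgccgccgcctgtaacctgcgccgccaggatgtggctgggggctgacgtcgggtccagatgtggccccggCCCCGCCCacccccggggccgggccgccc
KLF12 start: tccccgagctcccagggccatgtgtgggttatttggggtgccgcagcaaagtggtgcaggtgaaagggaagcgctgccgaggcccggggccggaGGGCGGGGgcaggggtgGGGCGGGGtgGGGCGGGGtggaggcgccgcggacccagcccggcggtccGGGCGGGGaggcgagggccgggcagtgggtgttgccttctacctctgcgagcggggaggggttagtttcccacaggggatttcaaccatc

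The KLF12 window has 4 GC boxes, the KLF13 window has 2 and the KLF6 window has no capitals. In the 250 bp before the canonical start a GC box was found in 8 of the 10 genes, all but KLF6 and KLF7, with up to 4 matches in KLF11 and KLF12. The same letters were found in 33.2% of 19874 promoter windows of protein-coding genes. The GC content of the 10 windows ran from 58% in KLF7 to 80% in KLF2. Neither the CACCC box (2.88% of all promoters) nor AP-1 (4.69%), FOX (2.06%), RUNX (2.82%), TEAD (2.05%), CRE (2.40%) or CArG (1.12%) letters were in any of the 10 windows.

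The 5 flanking windows are 250 bp around the peak centre, on the plus strand of the genome, and were chosen because their peaks changed and hold a motif. The first 2 became more accessible in M-phase: a peak 21.1 kb upstream of the KLF6 start (chr10:3848401-3848650) and a peak 30.0 kb downstream of it (chr10:3797302-3797551). The last 3 became less accessible: peaks in introns of KLF7 (chr2:208021279-208021528) and KLF13 (chr15:31631156-31631405), and a peak upstream of KLF4 (chr9:110266968-110267217).
KLF6 upstream peak: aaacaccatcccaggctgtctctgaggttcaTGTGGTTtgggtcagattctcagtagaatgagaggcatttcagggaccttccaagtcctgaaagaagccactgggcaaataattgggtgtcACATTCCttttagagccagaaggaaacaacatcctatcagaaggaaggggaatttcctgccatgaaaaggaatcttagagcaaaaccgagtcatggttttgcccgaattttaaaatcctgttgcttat
KLF6 downstream peak: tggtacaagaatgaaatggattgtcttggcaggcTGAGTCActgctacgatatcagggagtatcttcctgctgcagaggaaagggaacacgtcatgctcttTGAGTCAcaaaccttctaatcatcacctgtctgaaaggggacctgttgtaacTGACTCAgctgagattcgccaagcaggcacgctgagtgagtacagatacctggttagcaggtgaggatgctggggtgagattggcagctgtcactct
KLF7 intron peak: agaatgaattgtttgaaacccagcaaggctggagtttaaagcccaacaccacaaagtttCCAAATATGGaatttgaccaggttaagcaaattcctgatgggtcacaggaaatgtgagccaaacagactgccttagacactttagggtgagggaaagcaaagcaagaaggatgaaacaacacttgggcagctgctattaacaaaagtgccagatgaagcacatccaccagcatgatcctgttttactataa
KLF13 intron peak: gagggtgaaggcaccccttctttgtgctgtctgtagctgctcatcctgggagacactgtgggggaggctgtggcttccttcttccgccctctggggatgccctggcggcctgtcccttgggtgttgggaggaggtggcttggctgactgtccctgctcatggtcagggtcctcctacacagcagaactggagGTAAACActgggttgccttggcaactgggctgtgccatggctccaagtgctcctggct
KLF4 upstream peak: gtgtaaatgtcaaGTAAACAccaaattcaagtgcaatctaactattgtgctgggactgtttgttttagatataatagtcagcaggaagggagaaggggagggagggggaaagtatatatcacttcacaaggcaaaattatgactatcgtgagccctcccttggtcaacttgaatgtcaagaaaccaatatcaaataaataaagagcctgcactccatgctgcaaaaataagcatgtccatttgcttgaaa

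The capitals mark a RUNX and a TEAD match in the KLF6 upstream peak, 3 AP-1 matches in the KLF6 downstream peak, a CArG match in the KLF7 intron and a FOX match each in the KLF13 intron and upstream of KLF4. Counted over the 30 tested flanking peaks at no start, AP-1 letters were in 2 of 5 peaks that became higher, 0 of 5 that became lower and 2 of 20 without a call, beside 19.6% of 57621 such peaks in the genome. FOX letters were in 0 of 5 higher, 2 of 5 lower and 1 of 20 other peaks, beside 4.33%. A CArG box was in 1 higher peak (an exon of KLF6), in 1 lower peak (the KLF7 intron) and in 1 other peak (a KLF13 intron), beside 1.21%. A CACCC box was in 1 lower peak and no other (beside 3.04%), and a GC box was in 1 lower and 2 other peaks (beside 2.26%), all of these in KLF13. TEAD letters were in 1 higher and 2 other peaks (beside 4.87%), RUNX letters in 1 higher peak (beside 7.34%) and CRE letters in none (beside 0.238%). These are matches of letters, with counts too small for more than a description.

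At their starts most KLF genes were more accessible in M-phase by the values as deposited, while a loess normalization on the level of the peaks left 1 higher and 2 lower with a median of -0.10. As deposited, of the 10 TSS peaks 8 were called higher and 0 lower, all 10 changes were positive, and the median change was 0.73 in log2. A rise was the common state of starts: among 13131 tested TSS peaks of protein-coding genes 47.1% were called higher and 5.29% lower, with a median change of 0.45. Over all tested peaks 14.3% were called higher and 13.1% lower. In 8 of the 10 TSS peaks every M-phase library lay above every G1 library, as in 52.3% of protein-coding TSS peaks. The plot of the scaled reads shows KLF2 and KLF12 as the genes whose groups overlap.

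**Figure D1:**
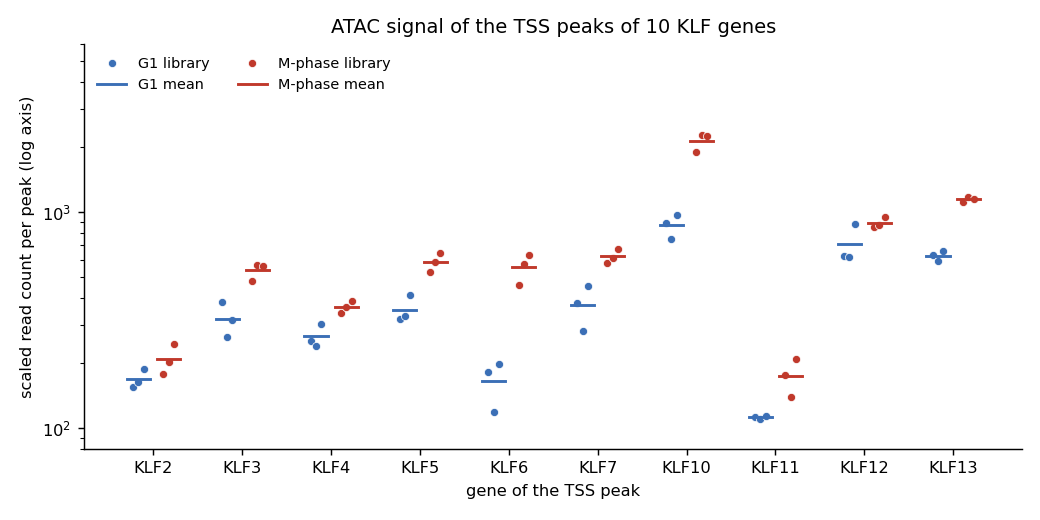
Scaled read counts of the TSS peak of each KLF gene (log axis), with blue points for the 3 G1 libraries, red points for the 3 M-phase libraries and bars for their means. The red points lie above all blue points in 8 of 10 genes, and the gap is largest for KLF6, from 118 to 198 in G1 and from 456.9 to 630.8 in M-phase.

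KLF6, an activator with tumour suppressor and splice variant forms that is studied in glioma, changed most. Its TSS peak (chr10:3826872-3828301) held 180.9, 118 and 198 scaled reads in G1 replicates 1, 2 and 3 and 456.9, 574.8 and 630.8 in M-phase replicates 1, 2 and 3. The groups were far apart, with a mean of 166 ± 42.1 (SD, n = 3) against 554 ± 88.8 (SD, n = 3), a ratio of 3.35. The change was 1.71 ± 0.18 (SE, limma adjusted p = 7.95e-13), and 99.4% of protein-coding TSS peaks had a smaller one. The peak also covers the start of an unnamed divergent transcript, from which its reads cannot be separated since ATAC-seq has no strand.

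KLF5, which promotes proliferation, had 318.1, 328.1 and 412 scaled reads at its start (chr13:73632752-73634176) in G1 and 525.7, 587.2 and 646.7 in M-phase. All M-phase values were higher, and the change was 0.73 ± 0.16 (SE, limma adjusted p = 0.000273). KLF7, known for its part in axon growth, rose by a like amount, from 378.8, 279.7 and 452 to 577.6, 611.5 and 677 (chr2:208030250-208031907). The groups did not overlap, and the change was 0.76 ± 0.17 (SE, limma adjusted p = 0.000164). That peak also overlaps a start of MYOSLID, a long noncoding RNA.

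KLF4, a reprogramming factor that also restrains cell division, had 253.5, 240.6 and 302 scaled reads in G1 and 339.4, 361.4 and 388.3 in M-phase (chr9:110250153-110252659). The KLF4 peak also overlaps a start of ENSG00000289987. The groups were close without overlapping, and the change of 0.45 ± 0.17 (SE, limma adjusted p = 0.0432) was the weakest with a call. Its call was lost in 5 of the 6 fits that left out 1 library, all but the one without G1 replicate 3, with adjusted p up to 0.185. KLF2, a factor of quiescent T cells and of endothelium under flow, had 154.1, 162.5 and 188 in G1 and 176.7, 201.9 and 245.9 in M-phase (chr19:16435061-16436457). Its groups overlapped, and the change of 0.29 ± 0.19 (SE, limma adjusted p = 0.278) got no call. The KLF2 peak also holds a start of its divergent neighbour KLF2-DT.

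The CtBP-binding repressors differed from each other in the call. The KLF3 start (chr4:38664882-38666927), shared with KLF3-AS1, had 382.8, 262.5 and 316 scaled reads in G1 and 477.5, 569.8 and 562.5 in M-phase. All M-phase libraries were higher, with a change of 0.74 ± 0.17 (SE, limma adjusted p = 0.000273). The KLF12 start (chr13:74707892-74710314) had 627.3, 615.6 and 882 in G1 and 849, 869.8 and 943.6 in M-phase. G1 replicate 3 lay above M-phase replicates 1 and 2, and the change of 0.34 ± 0.15 (SE, limma adjusted p = 0.0862) got no call. Without G1 replicate 3 the KLF12 change was 0.51 (limma adjusted p = 0.000965). Whether KLF3 and KLF12 changed by different amounts was not tested.

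The starts of the SIN3A-recruiting repressors were all called higher as deposited, but with loess none was, KLF13 being called lower. KLF10, first found as a TGF-beta inducible early gene, had the most open start in M-phase (chr8:103666008-103669020), from 890.8, 753.1 and 970 scaled reads in G1 to 1897, 2261.3 and 2250 in M-phase. The groups were far apart, with a ratio of means of 2.45, a change of 1.29 ± 0.14 (SE, limma adjusted p = 2.3e-12) and 94.0% of protein-coding TSS peaks below it. The KLF10 peak also overlaps a start of ENSG00000283959. KLF13, known from late activated T cells, went from 631.3, 594.5 and 659 to 1109.4, 1179.2 and 1148.6 (chr15:31617907-31620703), with tight groups and a change of 0.86 ± 0.15 (SE, limma adjusted p = 1.77e-06). KLF11, the relative of KLF10, was the weakest start, with 112.3, 109.4 and 114 in G1 and 175.1, 139.3 and 207.9 in M-phase (chr2:10183418-10184715). Its M-phase libraries were higher but scattered, and the change was 0.59 ± 0.20 (SE, limma adjusted p = 0.0193). The KLF11 call was lost without M-phase replicate 1 (adjusted p = 0.0734) and without M-phase replicate 3 (adjusted p = 0.171).

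The order of the starts by level changed with the phase. Levels were compared per kb of peak, since widths ran from 1298 to 3013 bp. In G1 the order was KLF12 at 292 scaled reads per kb, KLF10 at 289, KLF5 at 248, KLF13 at 225, KLF7 at 223, KLF3 at 157, KLF2 at 120, KLF6 at 116, KLF4 at 106 and KLF11 at 86.2. Neighbours in that order had overlapping libraries except for KLF4 and KLF11. In M-phase KLF10 led with 709 per kb, ahead of every library of the other genes. KLF5 (412), KLF13 (410), KLF6 (388), KLF7 (375) and KLF12 (366) followed with overlapping libraries. KLF3 (262) and then KLF2 (149), KLF4 (145) and KLF11 (134) stood lower, with a gap on either side of KLF3 and overlap among the last 3. KLF6 thus moved from rank 8 to rank 4 and KLF12 from rank 1 to rank 6. The median over all protein-coding TSS peaks was 109 per kb in G1 and 151 in M-phase.

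The size, the calls and for 8 genes the sign of the change at KLF starts depended on how the libraries were scaled, and KLF6 was the gene whose call and direction held in all 4 scalings. TMM scaling left 6 genes higher and 0 lower, without KLF4 and KLF11, and an equal total in peaks left the same count. A loess normalization, which removes any change that goes with the level of a peak, left KLF6 higher (1.06, limma adjusted p = 7.17e-10) and turned KLF12 (-0.74, limma adjusted p = 2e-10) and KLF13 (-0.25, limma adjusted p = 0.0193) to lower. Under it KLF2, KLF3, KLF4, KLF5, KLF7 and KLF10 had changes between -0.22 and -0.04 and KLF11 had 0.25, none with a call. KLF TSS peaks are strong, with a median of 449 scaled reads against 11.1 over all peaks. The median of all tested peaks was 0.02 as deposited, -0.08 with TMM, -0.23 with an equal total and 0.02 with loess. Called higher and lower among protein-coding TSS peaks were 42.1% and 8.55% with TMM, 32.2% and 16.2% with an equal total, and 22.3% and 17.7% with loess.

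**Figure D2:**
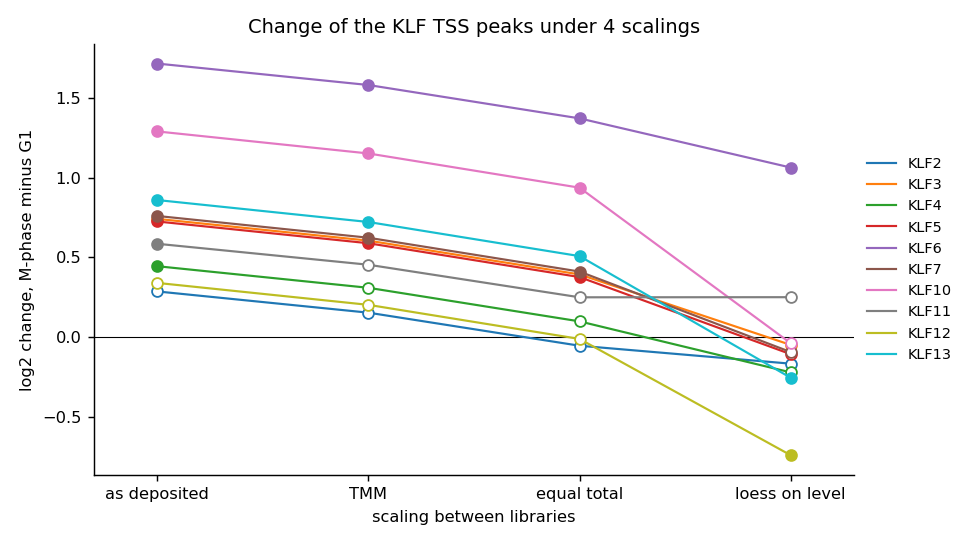
Log2 change (M-phase minus G1) of the 10 KLF TSS peaks under the scaling as deposited, TMM, an equal total in peaks and a loess on the level, with filled points for an adjusted p under 0.05 in limma. KLF6 stays above 1 throughout, and the other genes lie between -0.74 and 0.25 in the last scaling.

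Away from the starts the KLF windows did not move as one. Of the 47 flanking peaks 31 were tested, 5 were called higher, 5 lower and 21 neither, with a median change of -0.01 over all 47. Among the 57621 tested peaks at no start in the genome 6.51% were called higher and 15.0% lower, with a median of -0.05. Over all peaks at no start, tested or not, the median was 0.04. Of the 5 higher peaks 4 belong to KLF6, and without its window 27 tested peaks held 1 higher and 5 lower. The 5 falls lie in windows of KLF13, KLF7 and KLF4. By place, 14 tested intronic peaks held 0 higher and 4 lower, 6 upstream peaks 2 and 1, 9 downstream peaks 2 and 0, and 2 exonic peaks 1 and 0. Place and gene cannot be told apart here, since 3 intronic falls are in KLF13 and 1 in KLF7, while no KLF6 peak is intronic. Shares by place over all peaks were not computed.

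The split of flanking calls moved with the scaling and with single libraries. With TMM it was 5 higher and 7 lower, the KLF7 intron peak at 22.1 kb (limma adjusted p = 0.0202) and the KLF5 peak at 37.5 kb (limma adjusted p = 0.0262) being added, and with an equal total 4 higher and 14 lower. The number of lower calls fell to 2 without G1 replicate 3 and to 2 without M-phase replicate 3. The calls that held in all settings that tested the peak were the 4 rises at KLF6, the KLF7 intron and the KLF13 intron peak at 12.2 kb. For 3 of them, the KLF6 peaks at -25.1 and 30.0 kb and the KLF7 intron, the setting with at least 10 in every library was not among those settings. These 3 passed the main filter only through the phase in which they are high.

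**Figure D3:**
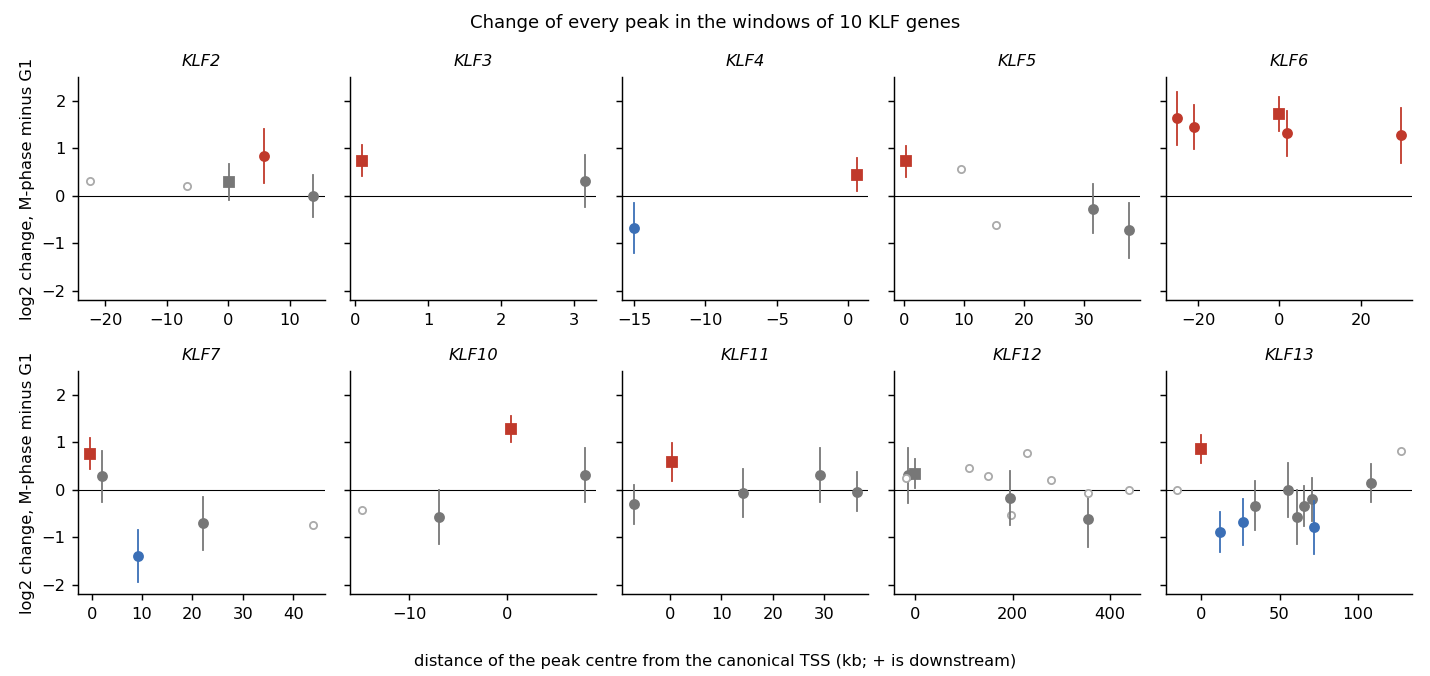
Log2 change (M-phase minus G1, limma, with 95% intervals) of every peak in the windows of the 10 KLF genes against its distance from the canonical start in kb, with squares for TSS peaks and circles for flanking peaks. Red marks a call higher, blue a call lower, grey no call and open circles peaks that were not tested. All 5 peaks of KLF6 lie between 1.28 and 1.71, while starts lie above introns in KLF7 and KLF13.

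Every peak in the KLF6 window was called higher. All 4 flanking peaks were tested and all 4 were called higher. The peak 25.1 kb upstream (chr10:3852335-3852631) had 6, 8.6 and 15 scaled reads in G1 and 36.7, 51.5 and 51.5 in M-phase. The lowest M-phase library had more than double the highest G1 library, with a change of 1.63 ± 0.28 (SE, limma adjusted p = 2.7e-06). This peak passed the filter only through its M-phase values, so that being tested already favoured a rise. The stronger peak 21.1 kb upstream (chr10:3847839-3849213), whose centre holds the RUNX and TEAD letters, had 32.8, 34.4 and 38 in G1 and 102.6, 96.4 and 133.8 in M-phase. The groups were tight and apart, and the change was 1.45 ± 0.23 (SE, limma adjusted p = 3.3e-07).

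An exonic peak 1.89 kb inside KLF6 (chr10:3825205-3825818) went from 44.7, 33.6 and 25 to 99.3, 105.1 and 83.7. The change was 1.31 ± 0.24 (SE, limma adjusted p = 6.05e-06), without overlap. The downstream peak with 3 AP-1 matches (chr10:3797274-3797580) went from 8.9, 8.6 and 4 to 21.4, 29.3 and 35.6, also without overlap. Its change was 1.28 ± 0.29 (SE, limma adjusted p = 0.000298), and it too passed the filter only through its M-phase values. Each of the 4 changes was larger than that of at least 99.2% of tested peaks at no start. Over every scaling, filter, count model and left-out library that tested them, the 5 KLF6 peaks stayed between 1.0 and 2.2 with an adjusted p of at most 0.00404. In a window of 50 kb KLF6 gained 1 more peak, 44.7 kb downstream of its start (chr10:3782401-3783019), which was also called higher. The fit gave it a change of 1.51 ± 0.29 (SE, limma adjusted p = 1.94e-05). It had 10.9, 14.1 and 3 in G1, with a mean of 9.33 ± 5.71 (SD, n = 3), and 33.8, 38.7 and 46.7 in M-phase. Without its M-phase values this peak would not have passed the filter.

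KLF13 held most of the falls. Its intronic peak 12.2 kb from the start (chr15:31630753-31631809) had 177, 126.6 and 162 scaled reads in G1 and 82.8, 102.2 and 58.2 in M-phase. Every M-phase library was lower, and the change was -0.89 ± 0.21 (SE, limma adjusted p = 0.000561). This peak lies within 500 bp of a further annotated KLF13 start and counts as a TSS peak under that wider definition. The intronic peak at 27.0 kb (chr15:31645672-31646383), with the CACCC letters, went from 60.6, 69.5 and 74 to 50.3, 30.9 and 39.5, a change of -0.67 ± 0.24 (SE, limma adjusted p = 0.0273). The one at 72.0 kb (chr15:31690937-31691209), with the GC box, went from 38.8, 23.4 and 48 to 19.8, 16.5 and 15.4, a change of -0.79 ± 0.28 (SE, limma adjusted p = 0.0252). Both were without overlap, and both lost the call in 4 of the 6 fits that left out 1 library, with adjusted p up to 0.189 and 0.135. The other 6 tested peaks of KLF13 changed by -0.57 to 0.15 and got no call. They include the strong exonic peak near the end of the gene, at 105.4, 107 and 135 in G1 and 159.4, 114.5 and 116 in M-phase, with overlapping groups.

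The largest fall of all members was in an intron of KLF7, 9.27 kb from the start (chr2:208021278-208021531). It had 12.9, 17.2 and 24 scaled reads in G1 and 1.6, 1.2 and 2.4 in M-phase. The peak with the CArG letters was thus near zero in all M-phase libraries, which are the deeper ones, and the change was -1.40 ± 0.27 (SE, limma adjusted p = 3.1e-05). A further KLF7 intron peak at 22.1 kb had 40.8, 24.2 and 37 in G1 and 19.8, 23.9 and 10.6 in M-phase. These groups did not overlap, and the change of -0.70 ± 0.28 (SE, limma adjusted p = 0.0535) just missed a call. The KLF7 intron peak nearest the start, at 2.04 kb, had 34.8, 17.2 and 45 against 41.6, 31.3 and 45.2, with overlapping groups and a change of 0.29 ± 0.27 (SE, limma adjusted p = 0.474).

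KLF4 and KLF2 had 1 called flanking peak each, in opposite directions. The KLF4 peak 15.0 kb upstream (chr9:110266805-110267381), with the FOX letters, had 32.8, 50 and 45 scaled reads in G1 and 21.4, 27.6 and 21.7 in M-phase. The groups were apart, and the change was -0.67 ± 0.27 (SE, limma adjusted p = 0.0488), a call that 5 of the 6 fits without 1 library lost. The called KLF2 peak, downstream of the gene, went from 9.9, 17.2 and 10 to 30.1, 24.3 and 29.8. The change was 0.84 ± 0.29 (SE, limma adjusted p = 0.0193), and 4 of the 6 fits without 1 library lost the call. The stronger KLF2 peak 13.8 kb downstream had 75.6, 69.5 and 93 against 80.3, 67.2 and 90.9, with a change of 0.00 ± 0.22 (SE, limma adjusted p = 0.997).

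**Figure D4:**
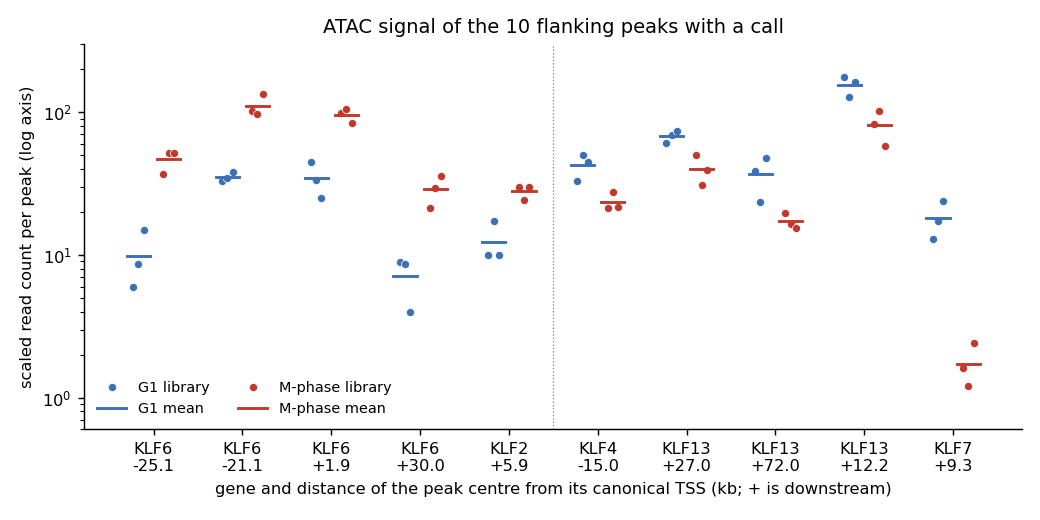
Scaled read counts (log axis) of the 10 flanking peaks with a call, with blue points for G1 libraries, red points for M-phase libraries and bars for their means, ordered by change and labelled with the gene and the distance from its start in kb. Groups do not overlap in any of them, but the peaks were chosen for having a call. How often groups do not overlap among tested peaks at no start was not computed. The 5 rises are left of the dotted line, and the KLF7 peak on the right falls from 12.9 to 24 in G1 to 1.2 to 2.4 in M-phase.

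The remaining genes had no called flanking peak. KLF11 had 4 tested peaks with changes of -0.30 to 0.32, among them the strong upstream peak at -7.12 kb with 126.3, 112.5 and 150 in G1 and 112.9, 118.7 and 81.8 in M-phase. The KLF11 groups overlapped there (limma adjusted p = 0.309). The peak of KLF3 at 3.15 kb had 23.9, 21.9 and 31 against 23.1, 33.8 and 47.2. For KLF5 the strongest flanking peak, 31.5 kb from its start, had 35.8, 53.9 and 49 against 32.5, 27.2 and 53.9, with overlap. The next, at 37.5 kb, had a change of -0.73 ± 0.29 (SE, limma adjusted p = 0.0502). KLF10 had 19.9, 18 and 23 against 9.9, 12.8 and 10.6 at -6.98 kb, without overlap and without a call (limma adjusted p = 0.138).

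KLF12, the longest of the genes at 448 kb, had 11 flanking peaks of which 3 were tested. The strongest lay 196 kb from the start, with 16.9, 16.4 and 38 scaled reads in G1 and 19.4, 21.4 and 16.4 in M-phase and overlapping groups (limma adjusted p = 0.722). Among the 16 members below the filter, with means of 2.02 to 8.82 scaled reads, 1 more KLF12 intron peak stood out and is named after its values were seen. It was listed at 0 in all G1 libraries and at 1.6, 6.2 and 11.1 in M-phase, below the main filter. With no filter its change was 0.78 and it was called higher. That call cannot count as a test, since the peak was picked by its values and its G1 values have no spread. With no filter 4 weak members gained a call, this KLF12 peak among them, and 2 other members lost one. A KLF5 intron peak (0.57) and the KLF13 peak at the ENSG00000259696 start (0.82) also became higher. The KLF7 peak at the KLF7-IT1 start (-0.73) became lower. These 16 weak peaks are also narrow, with a median width of 110 bp against 1852 bp for the TSS peaks.

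**Figure D5:**
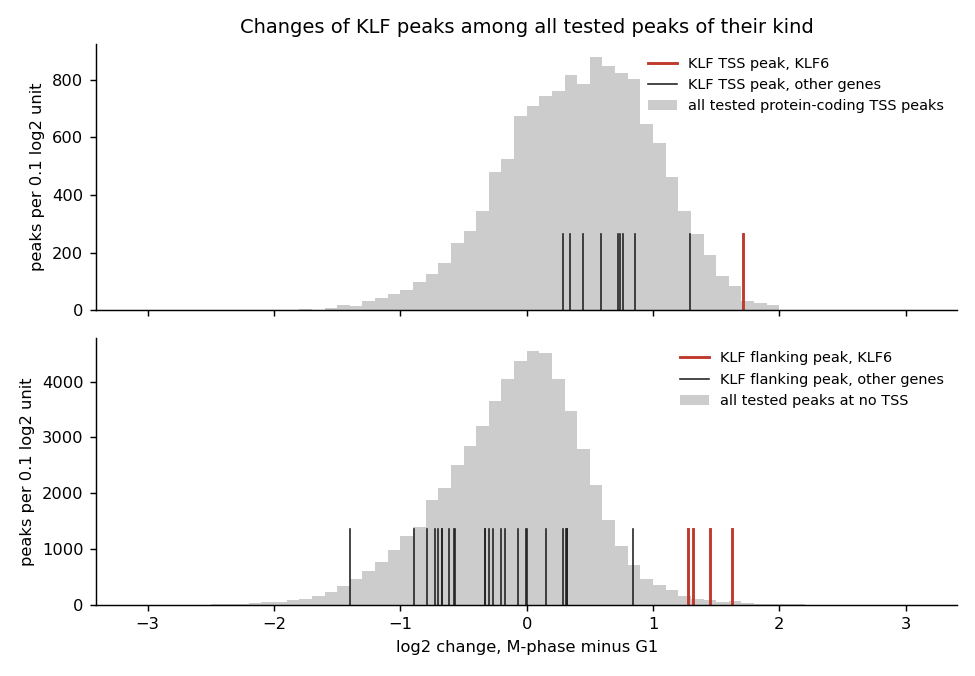
Number of tested peaks per 0.1 unit of log2 change (M-phase minus G1, grey) for protein-coding TSS peaks (top) and peaks at no start (bottom), with a line for each tested KLF peak, red for KLF6. The KLF6 lines stand in the right tail of both panels, from 1.28 to 1.71, and the other KLF lines are spread through the body of the distributions and, for introns, down to -1.40.

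Start and flanks were also compared within each library, where a constant scaling factor of the library cancels. A change that goes with the level of a peak, as the loess removes, does not cancel. The log2 ratio of the TSS peak to the summed tested flanking peaks at no start was higher in all M-phase than in all G1 libraries for 7 genes, KLF4, KLF5, KLF7, KLF10, KLF11, KLF12 and KLF13. For KLF13 it was 0.04, 0.07 and -0.12 in G1 and 1.07, 1.31 and 1.49 in M-phase, so that the start went from level with the 9 flanking peaks together to clearly above them. For KLF10 the mean log2 ratio rose by 1.50, from 4.77 ± 0.10 to 6.27 ± 0.31 (SD, n = 3). The exact permutation p (two-sided) was 0.1 for each of the 7 genes, as low as 3 libraries against 3 can go, or 0.143 after Benjamini-Hochberg adjustment over the 10 ratios. How often this ratio rises at other genes was not computed. Among all tested peaks, protein-coding TSS peaks had a median change of 0.45 and peaks at no start one of -0.05, which is the same direction.

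The KLF6 ratio was 0.97, 0.47 and 1.27 in G1 and 0.81, 1.03 and 1.05 in M-phase. The groups overlapped, with a mean difference of 0.06 (exact permutation p = 0.8). KLF2 (difference 0.07, exact permutation p = 0.7) and KLF3 (0.36, exact permutation p = 0.3, on 1 flanking peak) also overlapped. Whether the genes differ in this ratio was not tested, and a ratio shows unequal change without saying which of its 2 parts moved.

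The starts of relatives and partners were looked at next, from lists of genes chosen with earlier results of these data known. Of 16 other KLF and SP family genes 11 had a TSS peak, and the 11 peaks, all tested, held 4 higher and 1 lower with a median change of 0.18, beside 47.1% and 5.29% of protein-coding TSS peaks and their median of 0.45. The rises were SP1 (from 533.9, 333.6 and 542 to 1014.2, 1227.9 and 1311.2), SP2, SP3 and KLF16, with changes of 1.27 to 1.42. SP1 and SP3 bind GC boxes in most cells. The fall was KLF17, from 32.8, 28.9 and 33 to 9.5, 17.3 and 17.8, a change of -0.81 ± 0.28 (SE, limma adjusted p = 0.0223). Without its G1 values the KLF17 peak would not have passed the filter. The other 6, KLF15, SP4, SP6, SP7, SP8 and SP9, got no call, with changes of -0.25 to 0.46.

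Cofactors and ubiquitin ligases of KLF proteins had 15 TSS peaks in 11 genes, with 10 higher, 1 lower and a median change of 0.80, beside the same 47.1%, 5.29% and 0.45. The acetyltransferase gene EP300 rose most, from 349.9, 247.7 and 365 to 1190.5, 1341.2 and 1227.5, with groups far apart and a change of 1.96 ± 0.16 (SE). CTBP1, CTBP2 and all 3 starts of SIN3A, the corepressors of the repressive KLF proteins, were higher, with changes of 0.80 to 1.44. SIN3B, HDAC1 and a CREBBP start were also higher, while HDAC2 (0.12), KAT2B (-0.03) and the other CREBBP start (0.39) got no call. WWP1 (-0.33), a ligase for KLF2 and KLF5, got no call, and FBXW7 had 1 start higher (0.49) and 1 lower (-1.20). The lower FBXW7 start, at 4.1, 10.3 and 6.7 scaled reads in M-phase, passed the filter only through its G1 values. The ERK5-MEF2 and TGF-beta genes that signal to KLF2, KLF4, KLF10 and KLF11 had 16 TSS peaks in 11 genes, of which 15 were tested, 12 were higher and 0 lower (beside 47.1% and 5.29%). The median change over the 16 was 0.64. MEF2C was the gene without a call, at -0.37 to -0.14 over 3 starts, beside SMAD4 at 1.15 and MEF2D at 1.13. Over the lists together 26 starts were higher and 2 lower, which became 19 and 8 with an equal total in peaks and 14 and 8 with loess.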

How the data were processed

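The ATAC-seq libraries of T98G cells were analysed (3 of G1 and 3 of M-phase), while the DNA libraries of chromatin fraction and input were not used here. The paper's methods and the submitters' processing notes name cutadapt, Bowtie (through QuasR), SAMtools and MACS2 on hg19, in versions that are not given in the sources used here. The authors removed mitochondrial reads and called broad peaks on merged replicates. The deposited signal values are reads per peak that the authors scaled to the smallest library and rounded to 0.1, and each M-phase column stands for a HiSeq and a NextSeq run. The deposited columns with the authors' own log2 change and its SD were not used.

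Peaks were matched to GENCODE release 44 lifted to GRCh37. The canonical start is that of the annotation's canonical transcript, and distances run from it to the peak centre. The model was limma 3.58.1 (R 4.3.3) on log2(scaled reads + 8), with its trend option, no covariates and Benjamini-Hochberg adjustment over all 73121 peaks tested. Those were peaks that reached 10 scaled reads, adjusted to the median library total, in 3 or more libraries and summed to 15 or more. The fit was also run on simulated counts with the same spread setting for every peak and no shift with level. That run does not test the scaling, and its outcome is not given here. Other steps used Python 3.11.15, pandas 2.3.3, numpy 2.4.6, scipy 1.17.1, pysam 0.24.0 and matplotlib 3.10.9.

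The sequence of 1 peak is not reported here. The members and lists were chosen with earlier results of these data known. Named peaks were every TSS peak, and for each gene the flanking peak with the highest mean and the called flanking peaks with the largest rise and fall. The 5 flanking peaks with the smallest adjusted p in each direction over all genes were also named. The other peaks named in the text, and the genes named from the lists, were chosen after their values were seen. Alternatives were other scalings, filters, windows and a definition of a TSS peak within 500 bp of a start, a pseudocount of 1, each library left out in turn, a replicate block, and edgeR 4.0.16 on whole reads recovered from the steps of the values. At least 99.94% of values in each library lay on such steps, within 0.051 of a step multiple.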

Additional observations from a re-analysis of the deposited data

How the results depend on the processing

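Of the 10 KLF TSS peaks 8 were called higher and 0 lower, and 5 and 5 flanking peaks. The loess normalization, which by construction removes changes that go with level, left 1 TSS peak higher and 2 lower with a median of -0.10. It turned the sign of KLF2 (-0.165), KLF3 (-0.048), KLF4 (-0.22), KLF5 (-0.11), KLF7 (-0.092), KLF10 (-0.037), KLF12 (-0.74) and KLF13 (-0.25). An equal total in peaks moved the TSS median to 0.39, the flanking median to -0.22 and the lower flanking peaks to 14. A TSS definition within 500 bp gave 1 TSS peak lower, the KLF13 peak at 12.2 kb. Flanking peaks higher numbered 8 with no filter, 2 with at least 10 in every library, since the weaker peaks were then not tested, and 2 in a window of 10 kb. A window of 50 kb gave 10 flanking peaks lower and a median of -0.19. Without each library in turn, 2 to 5 flanking peaks were lower. The starts of relatives, cofactors and signalling genes, 26 higher and 2 lower, had 14 higher and 8 lower with loess, 8 lower with an equal total, and 1 to 2 lower without each library. With at least 10 in every library 0 were lower, since the KLF17 start and the lower FBXW7 start were then not tested. edgeR on recovered reads called 7 TSS peaks higher, without KLF4. Replicate numbers did not pair the libraries, with correlations of same-numbered deviations of -0.01 to 0.03, and the replicate block gave 8 TSS peaks higher and 0 lower, and 5 flanking peaks higher and 7 lower. The cause of these shifts was not tested beyond what each setting does by construction. The lower depth in G1 limits the weak peaks, and 16 of 57 members were too weak to test.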

Other observations

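Between 25 and 50 kb from the genes there were 24 more peaks, of which 15 were tested, 1 was higher and 5 were lower in limma, beside 6.51% and 15.0% of tested peaks at no start. The 1 rise is the KLF6 peak described above. The 5 falls were at KLF4, KLF7, KLF10, KLF11 and KLF13. The KLF4 peak passed the filter only through its G1 values. The peak 30.0 kb upstream of the KLF13 start (chr15:31588911-31589250) fell most, to 21.8, 12.8 and 9.1 scaled reads in M-phase from a G1 mean of 50.9 ± 7.17 (SD, n = 3), with a change of -1.42 ± 0.27 (SE, limma adjusted p = 2.44e-05). Without its G1 values that peak would not have passed the filter. The peak 30.2 kb upstream of KLF10 went to 33, 56.4 and 47.2 in M-phase from a G1 mean of 92.5 ± 16.9 (SD, n = 3), a change of -0.92 ± 0.23 (SE, limma adjusted p = 0.00125). The broad peak 30.7 kb upstream of KLF11 had 142.5, 130.2 and 124.6 in M-phase and a G1 mean of 246 ± 90.7 (SD, n = 3), a change of -0.79 ± 0.20 (SE, limma adjusted p = 0.00138). In all 3 the M-phase libraries lay below every G1 library.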
